A study of Rattus norvegicus with 86 samples.

Results

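The genes of the glucocorticoid receptor and of 2 of its response genes were followed through the deposited table of the nucleus accumbens core: Nr3c1 (ENSRNOG00000014096), Fkbp5 (ENSRNOG00000022523) and Sgk1 (ENSRNOG00000011815). They were chosen by their identifiers, and 3 of the 17180 genes of the table are these members. The rats were Heterogeneous Stock (HS) rats, an outbred population bred from inbred founder strains, so that no pair of rats shares a genotype by design. Each library came from tissue dissected from both sides of 1 rat's frozen brain sections. The study had no treatment arm, so sex and rat batch are the groups that the labels give. What a rat batch stands for, and the age of each rat, are not in the labels used here. Of 86 samples, 11 were labelled as removed. The other 75 comprise 2 females and 10 males of rat batch 2, 13 and 7 of rat batch 3, 14 and 12 of rat batch 4, 1 female of rat batch 5, and 8 and 8 of rat batch 6.

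Nr3c1 encodes the glucocorticoid receptor, a transcription factor that corticosterone, the main glucocorticoid of rats, binds in the cytoplasm and sends to the nucleus. There it binds DNA at glucocorticoid response elements and changes the transcription of nearby genes. Fkbp5 encodes a co-chaperone of Hsp90 that lowers the affinity of the receptor for hormone, and its induction by the receptor closes a short negative feedback loop. Sgk1 encodes a serum- and glucocorticoid-regulated kinase that acts on ion channels and transporters. In brain, both Fkbp5 and Sgk1 are widely used as readouts of glucocorticoid action. The nucleus accumbens core is a part of the ventral striatum involved in motivated behavior.

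All 3 symbols matched the RefSeq promoter windows of the GRCr8 build, with 2 windows for Nr3c1, 1 for Fkbp5 and 3 for Sgk1. Each window covers 300 bases around an annotated start, and all lie on the minus strand. GRCr8 is not the Rnor_6.0 build that the submitters' processing notes name. The windows of the 2 target genes are shown because the main question is whether these genes moved together, and windows 1 and 3 of Sgk1 because they differ most in base composition. Capitals mark matches, on either strand, to the GC box (GGGCGG or CCGCCC), the CCAAT box (CCAAT or ATTGG) and the TATA box (TATAAA or TTTATA), and no match of one motif overlaps a match of another.
Fkbp5, chr20:6543506-6543805, minus strand: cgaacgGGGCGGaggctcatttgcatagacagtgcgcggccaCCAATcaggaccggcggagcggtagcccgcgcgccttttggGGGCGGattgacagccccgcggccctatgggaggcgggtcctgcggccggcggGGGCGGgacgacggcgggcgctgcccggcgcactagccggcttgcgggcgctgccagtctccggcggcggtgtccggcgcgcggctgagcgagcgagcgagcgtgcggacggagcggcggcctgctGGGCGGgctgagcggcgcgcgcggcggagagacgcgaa
Sgk1 window 1, chr1:24804782-24805081, minus strand: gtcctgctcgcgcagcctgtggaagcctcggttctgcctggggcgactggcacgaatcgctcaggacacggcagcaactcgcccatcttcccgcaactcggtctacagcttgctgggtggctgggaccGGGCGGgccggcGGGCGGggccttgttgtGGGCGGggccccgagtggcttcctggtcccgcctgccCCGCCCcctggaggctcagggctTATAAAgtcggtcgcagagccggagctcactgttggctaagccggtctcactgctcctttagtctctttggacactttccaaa
Sgk1 window 3, chr1:24807182-24807481, minus strand: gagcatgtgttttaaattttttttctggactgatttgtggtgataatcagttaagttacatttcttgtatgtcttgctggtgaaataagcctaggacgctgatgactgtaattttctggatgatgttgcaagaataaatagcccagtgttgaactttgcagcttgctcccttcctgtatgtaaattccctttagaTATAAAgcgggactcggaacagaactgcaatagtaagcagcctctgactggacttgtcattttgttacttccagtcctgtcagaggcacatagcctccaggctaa

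The Fkbp5 window was 77.0% G and C with 52 CpG dinucleotides, against medians of 51.7% and 7 over 33469 windows. It held 4 GC boxes and 1 CCAAT box, motifs found in 33.1% and 37.5% of all windows. Sgk1 window 1 was 66.0% G and C with 23 CpG dinucleotides and 4 GC boxes, and its TATA box began at base -33 from the start. Sgk1 window 3 was poorer in both, at 40.7% and 3 CpG dinucleotides, and its TATA box began at base -55. A TATA box was present in 14.2% of all windows. The first Nr3c1 window was 79.0% G and C with 49 CpG dinucleotides and 4 GC boxes. The full palindrome of the response element (GAACA, 3 free bases and TGTTC) was in 17 of the 33469 windows (0.0508%), and the shorter AGAACA (or TGTTCT) in 20.7%. None of the 6 windows of the members held either, which says only that these letters are not in these windows.

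All 3 genes were well measured in every library. Levels are given as log2(scaled count + 1), where the authors scaled each library by an upper-quartile adjustment, and they are compared within a gene, since gene lengths were not used. The recovered counts behind them, obtained by undoing the scaling, ran from 660 to 2702 for Nr3c1, from 598 to 3088 for Fkbp5 and from 1074 to 3861 for Sgk1. Recovered totals per library ran from 8455344 to 26145108, with a median of 17827324. In the 74 libraries of the fits, counting error made up 6.52% of the residual variance of Nr3c1, 2.84% of that of Fkbp5 and 0.907% of that of Sgk1. No member had values identical to those of another gene (0 cases).

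The receptor was the steadiest of the 3 genes. Nr3c1 lay between 10.41 (male 2 of rat batch 3) and 11.18 (female 1 of rat batch 6), with a median of 10.81 and a mean of 10.80 ± 0.17 (SD, n = 75), a 1.71-fold range. Fkbp5 lay between 10.07, in the same female 1 of rat batch 6, and 11.38 (male 4 of rat batch 3), with a median of 10.79 and a mean of 10.78 ± 0.25 (SD, n = 75), a 2.49-fold range. Sgk1 lay between 10.11 (male 2 of rat batch 6) and 11.68 (female 13 of rat batch 4), with a median of 11.18 and a mean of 11.10 ± 0.38 (SD, n = 75), a 2.96-fold range. Female 1 of rat batch 6 thus had the highest receptor level and the lowest Fkbp5 level of all rats. In tissue of mixed cells, fewer cells of a type and less RNA per cell cannot be told apart.

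**Figure D1:**
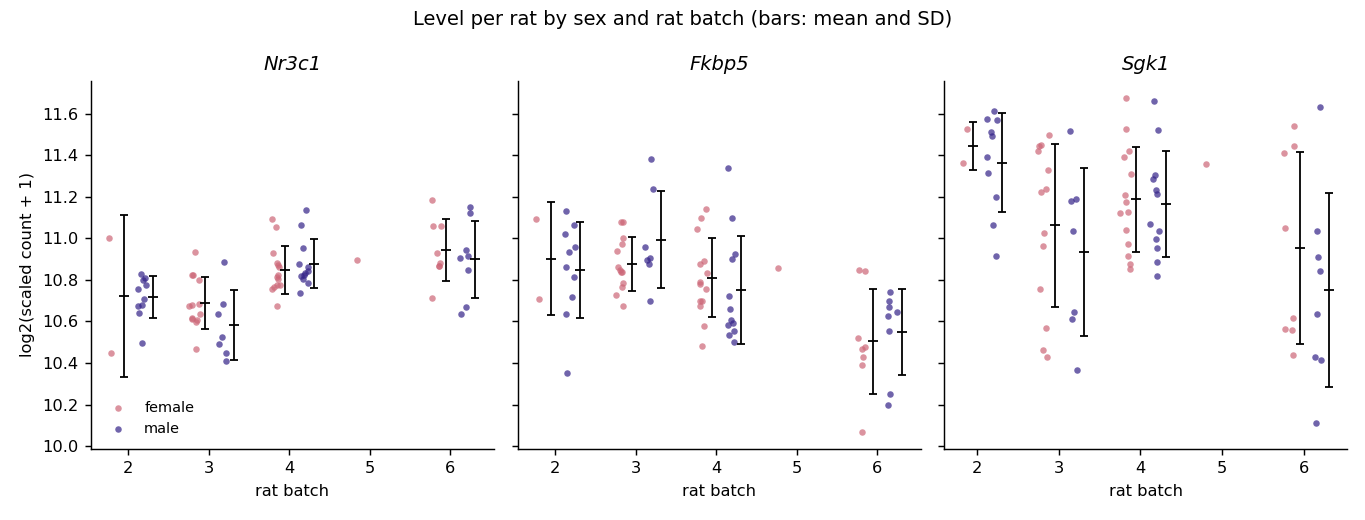
Level of each gene in each of 75 rats, as log2(scaled count + 1) on the vertical axis, by rat batch and sex. Points are rats, and horizontal ticks with bars are the mean and SD of a group of 2 or more rats. Sgk1 spans 10.11 to 11.68 and reaches its lowest values in rat batches 3 and 6, while Fkbp5 is lowest in rat batch 6 and Nr3c1 is lowest in rat batch 3.

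The spread between rats remained unequal after sex and rat batch means were removed. The residual SD on the log2 scale was 0.14 for Nr3c1, 0.21 for Fkbp5 and 0.34 for Sgk1 (n = 74), and the median gene with a mean of at least 5 had 0.20. Among the 12988 genes of that level, Nr3c1 stood at percentile 22.7, Fkbp5 at 56.1 and Sgk1 at 82.8. Low genes are noisier, so each member was also placed among the genes within 0.5 of its own mean. There Nr3c1 stood at percentile 50.7, Fkbp5 at 87.1 and Sgk1 at 98.1. Both glucocorticoid-induced genes therefore varied more from rat to rat than most genes of their level, and the receptor varied like the middle of them.

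**Figure D2:**
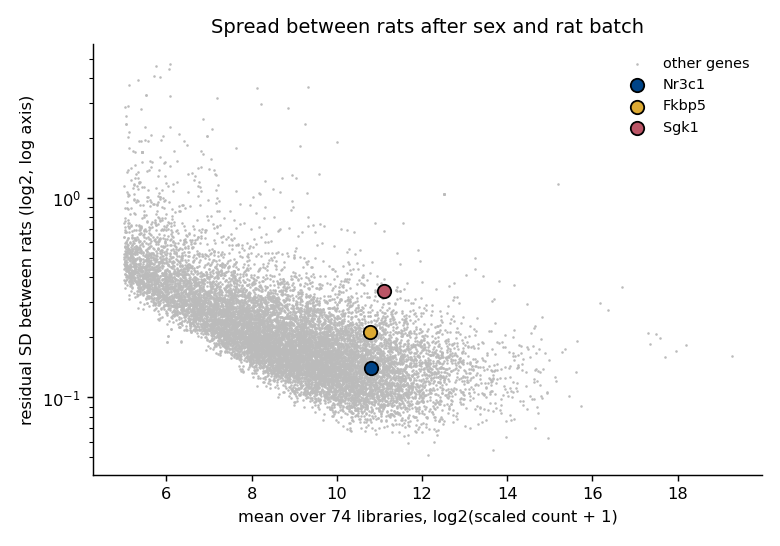
Residual SD between rats (log2 units, log axis) against the mean level over 74 libraries for genes with a mean of at least 5, after sex and rat batch means were removed. Grey points are single genes. Sgk1 (0.34) lies near the upper edge of the genes of its level, Fkbp5 (0.21) above their middle and Nr3c1 (0.14) at it.

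The spread of Sgk1 was not the same in each rat batch. Its SD with sex means removed was 0.23 in rat batch 2 (n = 12), 0.40 in rat batch 3 (n = 20), 0.25 in rat batch 4 (n = 26) and 0.46 in rat batch 6 (n = 16). Among genes with a mean of at least 5, not matched for level, Sgk1 stood there at percentile 59.6, 90.3, 69.4 and 92.1. The corresponding SDs were 0.16, 0.14, 0.12 and 0.17 for Nr3c1 and 0.24, 0.17, 0.23 and 0.23 for Fkbp5. Of the 15 lowest Sgk1 rats, 8 were of rat batch 6, 7 of rat batch 3 and 0 of rat batches 2 or 4, although those last batches hold 12 and 26 rats. The difference in spread between rat batches was not tested.

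Rat batch means differed for each gene, in a different order for each. Nr3c1 averaged 10.72 ± 0.15 (SD, n = 12) in rat batch 2, 10.65 ± 0.15 (n = 20) in rat batch 3, 10.86 ± 0.11 (n = 26) in rat batch 4 and 10.92 ± 0.16 (n = 16) in rat batch 6. The lowest, median and highest rats were 10.45, 10.73 and 10.999 in rat batch 2, then 10.41, 10.64 and 10.93 in the next, 10.67, 10.83 and 11.13 in rat batch 4, and 10.64, 10.91 and 11.18 in rat batch 6. The batches overlapped, but 11 of the 15 lowest rats were of rat batch 3 and 13 of the 15 highest were of rat batches 4 and 6 (6 and 7). By limma's moderated F test with Benjamini-Hochberg adjustment, the batch difference had F = 14.8 and an adjusted p of 1.24e-06. Such a difference was common in this table, since 53.5% of all genes passed the same test. Nr3c1 was higher in rat batch 4 than in rat batches 2 and 3 by 0.13 (SE 0.05, limma adjusted p = 0.0389) and 0.21 (SE 0.04, adjusted p = 2.26e-05), comparisons in which 26.9% and 39.8% of genes passed. It was higher in rat batch 6 than in rat batches 2 and 3 by 0.19 (SE 0.05, limma adjusted p = 0.00369) and 0.27 (SE 0.05, adjusted p = 1.93e-06), where 34.8% and 43.1% passed. Rat batches 2 and 3, and rat batches 4 and 6, were not separated (limma adjusted p = 0.416 and 0.477, with 3.44% and 3.87% of genes passing).

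Fkbp5 was lower in rat batch 6 than in each of the other batches. Its means were 10.86 ± 0.23, 10.92 ± 0.18, 10.78 ± 0.22 and 10.53 ± 0.22 (SD, n as above) in rat batches 2, 3, 4 and 6. The lowest, median and highest rats were 10.35, 10.90 and 11.13, then 10.67, 10.89 and 11.38, then 10.48, 10.74 and 11.34, and in rat batch 6 were 10.07, 10.54 and 10.85. The groups overlapped, with 9 of the 15 lowest rats and 0 of the 15 highest rats in rat batch 6. The F statistic was 11.4 (limma adjusted p = 2.04e-05), and without rat batch 6 the test did not pass (limma adjusted p = 0.157). Rat batch 6 lay below rat batches 2, 3 and 4 by 0.33 (SE 0.08, limma adjusted p = 0.00113), 0.39 (SE 0.07, adjusted p = 4.29e-06) and 0.26 (SE 0.07, adjusted p = 0.0171), that is at 0.798, 0.761 and 0.837 of their levels. Among rat batches 2, 3 and 4 no pair passed (limma adjusted p from 0.0727 to 0.686).

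Sgk1 was highest in rat batch 2 and lowest in rat batch 6. The means were 11.38 ± 0.22, 11.02 ± 0.39, 11.18 ± 0.25 and 10.85 ± 0.46 in rat batches 2, 3, 4 and 6. The lowest, median and highest rats were 10.91, 11.44 and 11.61, then 10.37, 11.11 and 11.52, then 10.82, 11.15 and 11.68, and in rat batch 6 were 10.11, 10.74 and 11.63, so that the batches overlapped widely. The F statistic was 7.20 (limma adjusted p = 0.000971). Only rat batches 2 and 6 were separated, by 0.56 (SE 0.13, limma adjusted p = 0.000451), with rat batch 6 at 0.679 of the level of rat batch 2. The adjusted p was 0.0519 between rat batches 2 and 3 and 0.0639 between rat batches 4 and 6 (limma). The 1 female of rat batch 5, which entered no fit, had 10.90 for Nr3c1, 10.86 for Fkbp5 and 11.36 for Sgk1. Each value lay within the ranges of rat batches 2, 3 and 4.

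Rat batch ran together with the order of the columns. The columns of the deposited table fall into 3 runs, within each of which the sample records rise in order, with 19, 12 and 44 libraries. Rat batch 2 lay in run 1, rat batches 4 and 6 in run 3, and rat batch 3 in all of them (7, 12 and 1 libraries). What a run stands for is not given. With run added to the model the batch F test no longer passed for any member, with limma adjusted p of 0.751 for Nr3c1, 0.0761 for Fkbp5 and 0.0805 for Sgk1. That loss was general to the table, since 0.984% of all genes (169) passed with run in the model. With the first 20 principal components of expression as covariates instead of run, the test did not pass for any member either. The limma adjusted p was then 0.799 for Nr3c1, 0.278 for Fkbp5 and 0.335 for Sgk1. Run alone accounted for 45.7% of the variance of Nr3c1 and rat batch for 38.4%, whereas rat batch accounted for 32.0% against 15.99% in Fkbp5 and 21.2% against 4.85% in Sgk1. Comparisons inside a single batch or run were added after these values were seen. Inside rat batch 3, Nr3c1 averaged 10.78 in the 7 libraries of run 1 and 10.57 in the 12 of run 2, a difference of -0.20 (SE 0.05, limma adjusted p = 0.0107, a test that 11.1% of genes passed). For Fkbp5 and Sgk1 the same adjusted p was 0.582 and 0.920. Inside run 3, Fkbp5 was lower in rat batch 6 than in rat batch 4 by 0.26 (SE 0.07, limma adjusted p = 0.0353), a comparison that 2.60% of genes passed. Sgk1 differed there by -0.32 (SE 0.10, unadjusted p = 0.00369, limma adjusted p = 0.0806) and Nr3c1 by 0.06 (SE 0.04, limma adjusted p = 0.478). Rat batches 4 and 6 lay wholly in run 3, so these comparisons used the same rats as that pair in the fit of all 4 batches. They are not a second measurement of it. Inside run 1, limma called 0 genes between rat batches 2 and 3 (553 at an unadjusted p under 0.05), and Sgk1 differed by -0.45 (SE 0.16, unadjusted p = 0.0108, adjusted p = 1.00). Nr3c1 differed there by 0.06 (SE 0.08), against -0.08 between these batches in the fit of all 4, and Fkbp5 by 0.15 (SE 0.12), both with a limma adjusted p of 1.00. Rat batch and run cannot otherwise be told apart for rat batches 2, 4 and 6.

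No sex difference was detected in any of the 3 genes. Female and male means were 10.81 and 10.78 for Nr3c1, 10.77 and 10.78 for Fkbp5, and 11.11 and 11.09 for Sgk1 (37 females, 37 males). Female rats ran from 10.45 through a median of 10.82 to 11.18 for Nr3c1 and males from 10.41 through 10.80 to 11.15. For Fkbp5 the values were 10.07, 10.79 and 11.14 in females and 10.20, 10.72 and 11.38 in males. For Sgk1 they were 10.43, 11.18 and 11.68 in females and 10.11, 11.07 and 11.66 in males, so the sexes overlapped along nearly their whole range. With rat batch in the model, the male minus female difference was -0.03 for Nr3c1 (95% interval -0.10 to 0.04, limma adjusted p = 0.937), 0.01 for Fkbp5 (-0.09 to 0.12, adjusted p = 0.982) and -0.10 for Sgk1 (-0.26 to 0.06, adjusted p = 0.895). The Benjamini-Hochberg threshold was passed by 0.0873% of genes in this comparison. The Sgk1 difference was negative in each rat batch, at -0.08, -0.13, -0.02 and -0.20 in rat batches 2, 3, 4 and 6. The interaction of sex and rat batch, over rat batches 3, 4 and 6 (62 libraries), was not passed by any gene with limma (0 genes, 506 at an unadjusted p under 0.05), and the unadjusted p of the members was 0.270, 0.371 and 0.711.

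No joint movement of the 2 target genes was detected over all rats. After sex and rat batch means were removed, Fkbp5 and Sgk1 had Pearson r = 0.17 (95% interval -0.06 to 0.39, n = 74, permutation p = 0.144, adjusted p = 0.369 over 6 tests) and Spearman rho = 0.17 (permutation p = 0.157, adjusted p = 0.369). Both genes lay on the same side of their group means in 35 of 74 rats. Leaving out the 2 rats with the most extreme Sgk1 residuals, males 2 and 4 of rat batch 6, gave r = 0.18. In the limma regressions over all genes, Fkbp5 changed by 0.11 per unit of Sgk1 (SE 0.07, adjusted p = 1.00), and Sgk1 by 0.28 per unit of Fkbp5 (SE 0.18, adjusted p = 0.429). Of the 17179 other genes, 14.5% had a larger absolute partial correlation with Sgk1 than Fkbp5 did, and 33.2% a larger one with Fkbp5 than Sgk1 did.

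**Figure D3:**
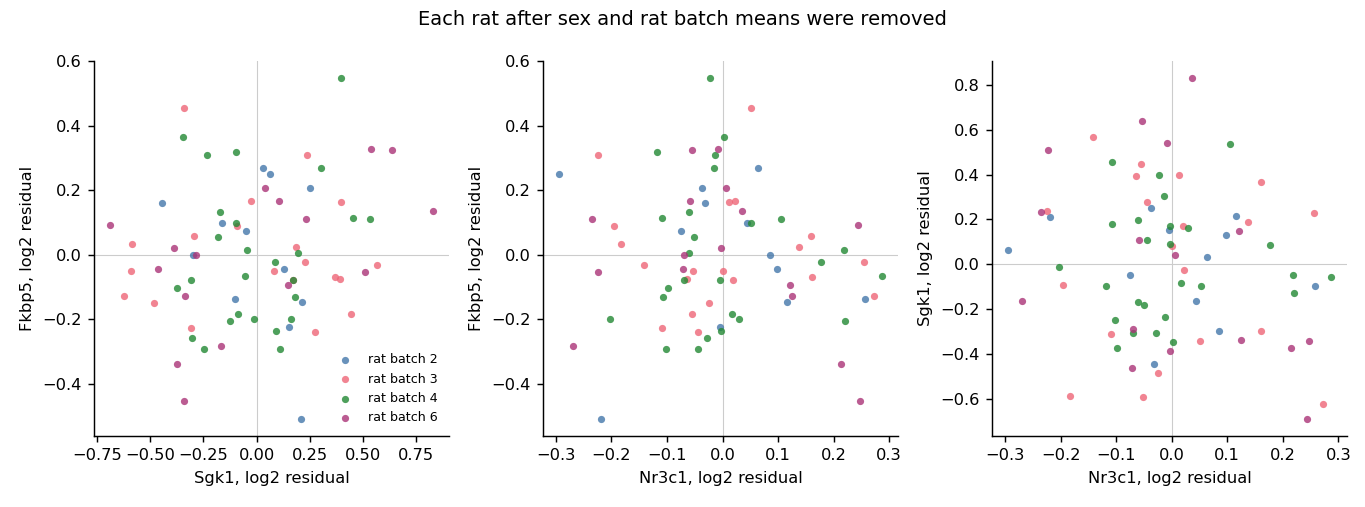
Residuals of the 74 rats in log2 units after sex and rat batch means were removed, for Fkbp5 against Sgk1, Fkbp5 against Nr3c1 and Sgk1 against Nr3c1, with 1 point per rat coloured by rat batch. None of the clouds has a clear slope, with r of 0.17, -0.11 and -0.17.

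The correlation of Fkbp5 and Sgk1 had a different sign in some rat batches. It was -0.33 in rat batch 2 (n = 12), -0.03 in rat batch 3 (n = 20), 0.23 in rat batch 4 (n = 26) and 0.56 in rat batch 6 (n = 16). In rat batch 6 the 95% interval was 0.06 to 0.83 and the permutation p was 0.0317, which became 0.412 after adjustment over the 24 within-batch tests. Spearman's rho there was 0.56 (permutation p = 0.0343, adjusted p = 0.412), r without males 2 and 4 was 0.68, and 11 of 16 rats lay on the same side for both genes. Female 1 and male 5 illustrate the low end, with Fkbp5 at 10.07 and 10.20 and Sgk1 at 10.56 and 10.43. Females 5 and 8 illustrate the high end, with Fkbp5 at 10.85 and 10.84 and Sgk1 at 11.44 and 11.54. Male 2 does not follow them, with the lowest Sgk1 of all rats (10.11) and Fkbp5 at 10.63. The test of the difference between batches did not pass (slope by batch interaction F = 1.95, unadjusted p = 0.130, limma adjusted p = 0.9997), and limma called 0 genes in that interaction with Sgk1, with 834 at an unadjusted p under 0.05. Without rat batch 6, the correlation over the other batches was 0.01.

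**Figure D4:**
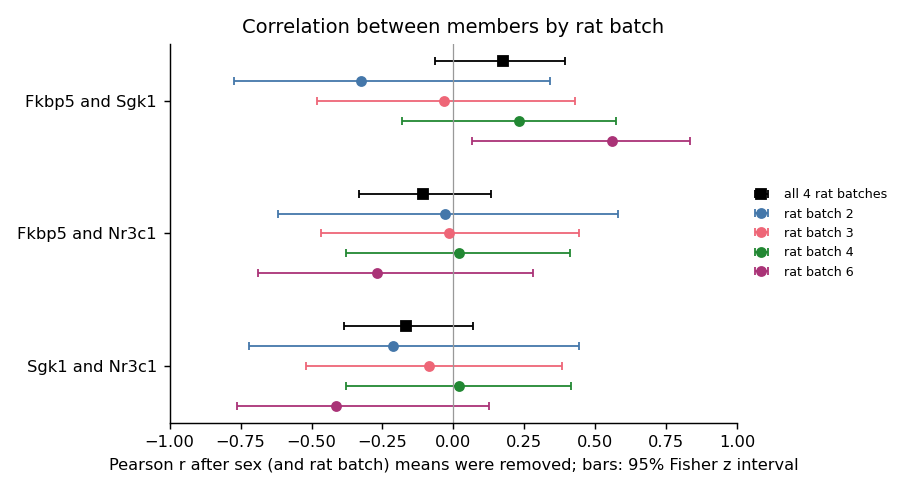
Pearson r (horizontal axis, -1 to 1) for the 3 pairs of genes over all 4 rat batches (black squares) and in each rat batch (coloured points), with 95% Fisher z intervals as bars. The Fkbp5 and Sgk1 values run from -0.33 in rat batch 2 to 0.56 in rat batch 6, and the intervals of the 4 batches overlap.

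No relation of either target gene to the level of the receptor was detected with sex and rat batch removed. Fkbp5 and Nr3c1 had r = -0.11 (95% interval -0.33 to 0.13, n = 74, permutation p = 0.414, adjusted p = 0.497) and rho = -0.05 (permutation p = 0.674, adjusted p = 0.674). Sgk1 and Nr3c1 had r = -0.17 (-0.39 to 0.07, permutation p = 0.184, adjusted p = 0.369) and rho = -0.13 (permutation p = 0.3002, adjusted p = 0.450). Leaving out female 2 of rat batch 2 and male 7 of rat batch 4 gave r of -0.06 and -0.17. Within rat batches 2, 3, 4 and 6, r was -0.03, -0.01, 0.02 and -0.27 for Fkbp5 and -0.21, -0.09, 0.02 and -0.41 for Sgk1, and the smallest adjusted permutation p of these 8 values was 0.917. Leaving out the 2 rats of each batch with the most extreme Nr3c1 residuals moved the Fkbp5 values to 0.45, 0.16, 0.05 and -0.60. The Sgk1 values moved to -0.15, -0.01, 0.09 and -0.40. In rat batch 6 the rats left out were males 1 and 2. Female 1, with the highest Nr3c1 level and the lowest Fkbp5 level of all rats, stayed in. The within-batch values for Fkbp5 thus rest on few rats. No difference between rat batches was detected in the slopes of Fkbp5 or Sgk1 on Nr3c1 (limma adjusted p = 0.943 and 0.697), although 5.93% of genes passed that test. One setting changed a call. With the first 20 expression components added to sex and rat batch, r between Fkbp5 and Nr3c1 was -0.47 (permutation, adjusted p = 0.00531). The components were computed here, and the study's eQTL mapping used covariates of the same kind beside founder similarity.

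Depth and detection were set beside the 3 genes in 12 tests, and none passed. The largest with all rats was Sgk1 against the number of genes at 0 in a library, with rho = 0.29 (permutation p = 0.0156, adjusted p = 0.187) and r = 0.20 (permutation p = 0.0919, adjusted p = 0.552), over libraries with 317 to 1399 such genes. Leaving out male 5 of rat batch 2 and male 6 of rat batch 6 gave r = 0.19 for Sgk1, while the same omission moved r with the number of genes at 0 from 0.08 to 0.23 for Fkbp5 and from -0.11 to -0.0059 for Nr3c1. For the log2 total recovered count, male 5 of rat batch 2 and female 4 of rat batch 4 were left out. There r moved from 0.09 to -0.06 for Fkbp5 and from -0.10 to -0.07 for Sgk1, and stayed at 0.13 for Nr3c1.

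The number of genes that followed each member from rat to rat ran from 52 for Sgk1, the gene with the widest spread, to 4651 for Nr3c1, the gene with the narrowest. A follower is a gene whose limma regression on the member, with sex and rat batch in the model, passed the Benjamini-Hochberg threshold of 0.05 among 17179 genes. Nr3c1 had 4651 followers (27.1% of genes), 2416 positive and 2235 negative. Fkbp5 had 668 (3.89%), 343 positive and 325 negative, and Sgk1 had 52 (0.303%), 42 positive and 10 negative. The smallest absolute partial correlation that passed was 0.29 for Nr3c1, 0.35 for Fkbp5 and 0.43 for Sgk1. An absolute value above 0.5 was reached by 1003, 68 and 25 followers with a mean level of at least 5. Among followers with a mean level of at least 5, the sign was the same in each of the 4 rat batches for 73.2% of 4474, 89.3% of 608 and 79.5% of 44, against 34.2%, 20.7% and 10.9% of all genes of that level. The followers were chosen on the same rats, so these shares describe them and do not test them. The 3 fits share all their libraries. With the first 20 expression components added as covariates the counts were 58 for Nr3c1, 25 for Fkbp5 and 31 for Sgk1, so neither the size of the contrast nor the order of Fkbp5 and Sgk1 held under that setting. Single libraries moved these counts as well. Without male 5 of rat batch 2, the library with the smallest total, Fkbp5 had 242 followers, and it had 412 without female 10 of rat batch 4 and 430 without female 1 of rat batch 6. For the positive and negative followers of Fkbp5 apart, leaving out each library in turn gave 142 to 546 and 100 to 445. Leaving out whole rat batches moved the counts too. Nr3c1 had 2569 followers without rat batch 4, and Fkbp5 had 335, 273 and 362 without rat batches 2, 3 and 4. Fkbp5 had 398 with quantile normalization. Sgk1 had 33 followers without female 5 of rat batch 6, 23 without rat batch 3 and 10 without the whole of rat batch 6. Its 10 negative followers also changed in number. They numbered 4 without female 5 of rat batch 6, 5 without female 4 of rat batch 3, male 2 of rat batch 6 or male 12 of rat batch 4, and 6 without male 7 of rat batch 3 or male 4 of rat batch 6. At most they numbered 15, without male 5 of rat batch 2, and without all of rat batch 6 limma called 0.

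**Figure D5:**
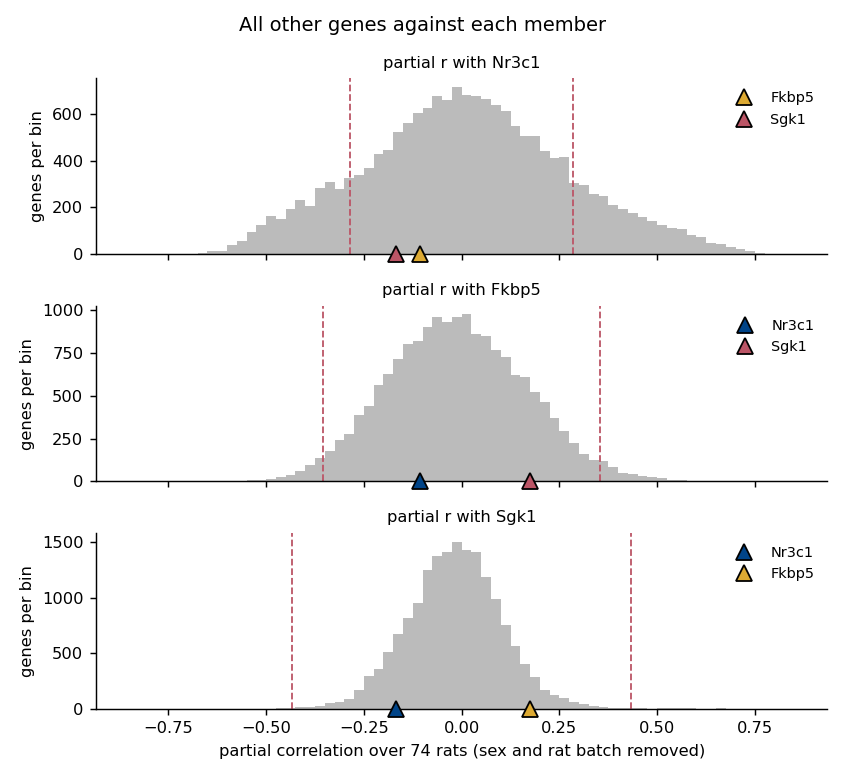
Number of genes (vertical axis) per bin of partial correlation with Nr3c1, Fkbp5 and Sgk1 over 74 rats, after sex and rat batch means were removed. Dashed lines mark the smallest absolute correlation that passed (0.29, 0.35 and 0.43) and triangles the other members, all of which fall inside them. The distribution is widest for Nr3c1 and narrowest for Sgk1.

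The files name genes by Ensembl identifier only, so at most 2 followers in each direction are given per member. They are ranked among genes with a mean level of at least 5, and their functions are not described. ENSRNOG00000011216 and ENSRNOG00000004300 followed Nr3c1 most closely, each with a partial r of 0.76 (slopes 0.86, SE 0.09, and 1.12, SE 0.12, both limma adjusted p = 9.45e-11). Within rat batches 2, 3, 4 and 6 the r of ENSRNOG00000011216 was 0.83, 0.76, 0.70 and 0.78, and its level ran from 10.73 to 11.65. That gene had r = -0.01 with Sgk1 and 0.22 with Fkbp5. ENSRNOG00000024568 and ENSRNOG00000018441 ran the opposite way to the receptor, each with r = -0.67 (limma adjusted p = 1.77e-08 and 4.23e-08), from -0.89 to -0.49 in the single batches.

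For Fkbp5 the closest gene was ENSRNOG00000015401, with r = 0.74 (slope 0.66, SE 0.07, limma adjusted p = 1.60e-09), and 0.71, 0.87, 0.64 and 0.84 in rat batches 2, 3, 4 and 6. Its level ran from 10.46 through a median of 11.13 to 11.58. ENSRNOG00000015736 followed with r = 0.67 (limma adjusted p = 1.28e-06) and a slope of 0.97 (SE 0.13). ENSRNOG00000002449 (r = -0.62, limma adjusted p = 2.37e-05) and ENSRNOG00000025602 (r = -0.57, limma adjusted p = 0.000411) fell as Fkbp5 rose. With Sgk1 their r was 0.18, 0.13, -0.11 and -0.14.

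The closest single followers were those of Sgk1. ENSRNOG00000007390 and ENSRNOG00000006972 each had r = 0.82 (slopes 0.83, SE 0.07, and 0.89, SE 0.07, both limma adjusted p = 4.52e-15). The first had r of 0.72, 0.81, 0.84 and 0.86 in rat batches 2, 3, 4 and 6 and the second 0.69, 0.87, 0.69 and 0.90. Their levels spread over 7.73 to 9.57 (median 8.67) and 9.08 to 10.83 (median 10.10), with SDs of 0.34 and 0.37 after sex and rat batch. Neither tracked Fkbp5 (r = 0.14 and 0.21), while ENSRNOG00000007390 had r = -0.40 with Nr3c1. The lowest r with Sgk1 among genes with a mean level of at least 5 was -0.53. The negative followers that met the rule for naming were ENSRNOG00000017869 with r = -0.47 and ENSRNOG00000055010 with r = -0.46 (both limma adjusted p = 0.0224). Within rat batches 2, 3, 4 and 6 the r of the former was -0.62, -0.63, -0.17 and -0.54 and that of the latter -0.71, -0.49, -0.37 and -0.49. Leaving out the 2 rats most extreme in Sgk1 left the positive pair at 0.81 and 0.82.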

How the data were processed

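RNA from 86 nucleus accumbens core samples, 1 per rat, was sequenced as single-end reads. The authors used cutadapt for trimming, RSEM with the Ensembl rat transcripts for estimated counts and DESeq2 for an upper-quartile scaling, removed genes with few reads, and deposited log2(scaled count + 1). The submitters' processing notes name Rnor_6.0. The deposited scaled counts are whole numbers to within 0.0004%, which gave each library's scaling factor (0.708 to 2.183) and so its counts, on the assumption that no factor was below 0.55. The counts were used for depth, the counting error and voom. All columns were mapped (0 unmapped).

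Tests used limma 3.58.1 in R 4.3.3 (lmFit, eBayes with an intensity trend) on 74 libraries, without the single rat of rat batch 5, and Benjamini-Hochberg adjustment over all genes at 0.05. Correlations of residuals used 100000 two-sided permutations within groups of 1 sex and rat batch, in Python 3.11.15, numpy 2.4.6, scipy 1.17.1 and pandas 2.3.3, and figures used matplotlib 3.10.9. The code was tested on simulated data. Named followers were, for each member, the 2 most positive and 2 most negative identifiers by partial correlation among genes with a mean of at least 5, an adjusted p under 0.05 and the same sign in rat batches 2, 3, 4 and 6. The members and lists were chosen with earlier results of these data known. The reference used here pairs 0 Ensembl identifiers with symbols, so the marker genes of the tissue and the wider lists of glucocorticoid response and receptor genes are not analysed here. Alternatives covered filters, pseudocounts, transformations, covariates and left-out batches and libraries. Voom and the comparisons inside 1 batch or column run were chosen after seeing the data.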

Additional observations from a re-analysis of the deposited data

How the results depend on the processing

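The sex differences did not pass under any alternative run. With 20 expression components as covariates the male minus female difference turned to 0.15 for Nr3c1 and to -0.42 for Fkbp5, and without rat batch 3 it was -0.024 for Fkbp5. Leaving out each library in turn gave -0.00482 to 0.0286 for Fkbp5. The rat batch adjusted p (limma) under the column run as a covariate was 0.751, 0.0761 and 0.0805 for Nr3c1, Fkbp5 and Sgk1, under the 20 components 0.799, 0.278 and 0.335, and without rat batch 6 it was 0.157 for Fkbp5. The F test over rat batches passed for each member when any single library was left out, and pairs of batches were not refitted in that way.

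With the 20 components, followers numbered 58 for Nr3c1, 25 for Fkbp5 and 31 for Sgk1. Without rat batch 4, Nr3c1 had 2569 and Fkbp5 362 followers. Fkbp5 had 335 without rat batch 2, 273 without rat batch 3 and 398 with quantile normalization. Sgk1 had 25 after the rank-based inverse normal transformation, 23 without rat batch 3 and 10 without rat batch 6. Leaving out each library in turn gave 4099 to 5014 followers of Nr3c1, 242 to 991 of Fkbp5 and 33 to 60 of Sgk1. Each of these last ranges was reached without male 5 and female 2 of rat batch 2 for Fkbp5 and without female 5 of rat batch 6 and female 9 of rat batch 4 for Sgk1. The correlation of Fkbp5 and Nr3c1 became -0.47 (permutation, adjusted p = 0.00531) with the 20 components. Over its other alternatives, left-out libraries included, it ran from -0.18 to -0.05. The cause of these changes was not tested.

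No paired analysis was possible because a rat's number is just a name within its group, and each rat gave 1 library. Alternatives with cell type marker covariates, and the response and receptor lists, were not run, since identifiers were not paired with symbols. Each member had 598 or more counts in every library. That lowest count was Fkbp5 in male 5 of rat batch 2, which had the smallest total and the lowest Fkbp5 residual (-0.51), and the part of depth in this was not tested. The 2 females of rat batch 2 and the 12 to 26 rats per batch limit comparisons within batches.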

Other observations

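In the groups of 4 to 10 rats of 1 sex and rat batch, 12 sets of values over the 3 genes were checked, in each of which the most extreme value was set against Dixon's 95% critical value. None exceeded it (0 of 12), where chance alone gives about 1 in 20. The rats with the largest residuals from their sex and rat batch means were male 7 of rat batch 4 (0.29) and female 2 of rat batch 2 (-0.29) for Nr3c1, male 5 of rat batch 4 (0.55) and male 5 of rat batch 2 (-0.51) for Fkbp5, and males 4 (0.83) and 2 (-0.69) of rat batch 6 for Sgk1.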
